A study of Mus musculus with 6 samples.

Results

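The genes described here encode the enzymes that put acetyl groups on histones, the enzymes that take them off and bromodomain proteins that read them. They comprised 15 acetyltransferases and coactivators with reported acetyltransferase activity, 11 zinc-dependent deacetylases, 7 sirtuins and 5 bromodomain readers. These 38 genes were taken from a list of names, and each was represented by the brightest probe set, by its mean over all arrays, among those annotated with that gene alone. All 38 were on the array, out of 22180 genes represented in this way. The measurements come from 6 microarrays (Affymetrix Mouse Gene 2.0 ST) hybridized with RNA of iBACs, an immortalized brown adipogenic line from mouse that becomes brown adipocytes after a hormonal induction. Of these, 3 came from cells stably transduced with lentiviral shRNA particles against Aspa (siAspa) and 3 from cells that carried a non-targeting construct instead (ntc). Both cell populations were selected with G418, differentiated with IBMX, dexamethasone, insulin, triiodothyronine and indomethacin, kept with insulin and triiodothyronine from the second day on, and harvested on day 7. The replicates were described as separate passages, and 1 catalogue number was given for the shRNA, so that loss of Aspa cannot be told apart from any other difference between the transduced populations. All values are log2 signals normalized by RMA, and differences are siAspa minus ntc.

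Histone acetyltransferases transfer the acetyl group of acetyl-CoA to lysines of the histone tails, which loosens chromatin and creates binding sites for bromodomains. The zinc-dependent histone deacetylases and the NAD-dependent sirtuins remove the group again, and several sirtuins act on mitochondrial or cytoplasmic proteins rather than on histones. Aspa splits N-acetylaspartate into aspartate and acetate, a source of acetyl-CoA, and the study asked how its loss affects histone acetylation in brown adipocytes. The arrays address whether the transcripts of the enzymes and readers themselves differed. They measure neither enzyme activity nor the acetylation of histones.

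None of the 38 genes passed the test between siAspa and ntc. At an adjusted p under 0.05 from limma, 0 were lower and 0 were higher, while 0.0992% of all genes were lower and 0.189% were higher. At an unadjusted p under 0.05, 3 members (7.89%) were lower against 6.17% of all genes, and 3 members (7.89%) were higher against 6.87%, so that both shares lay near the background. With any 1 array left out, these counts became 0 to 1 lower and 0 to 3 higher. The shares of all genes with an array left out were not computed. The log2 fold changes of the members ran from -0.29 for Ncoa1 to 0.30 for Hdac11, with a median of 0.02 beside 0.02 over all genes. The second probe set of Hdac11 was at -0.31, and with the mean of both the highest member was Hdac9 at 0.24. The knock-down itself was plain on the same arrays. Aspa read 9.07, 8.81 and 8.59 in ntc and 7.02, 6.97 and 7.44 in siAspa, a log2 fold change of -1.68 (SE, the standard error, 0.17; adjusted p of 0.034).

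The intervals bound how far the normalized array signals of these genes could have moved. A change shared by most genes is not visible after RMA, so these are not bounds on transcript amounts. For 37 of 38 members (97.4%) the 95% confidence interval of the log2 fold change lay within 1.5-fold in either direction, that is less than 0.58 log2 units from 0, as it did for 90.4% of all genes. The exception was Hdac11, with an interval from 0.01 to 0.59. The median standard deviation between replicate arrays was 0.0727 in ntc and 0.0653 in siAspa for the members, and 0.105 and 0.0960 over all genes. Where the 3 siAspa arrays lay wholly to 1 side of the 3 ntc arrays, 4 members (10.5%) were lower and 8 (21.1%) were higher, compared with 9.99% and 12.6% of all genes.

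**Figure D1:**
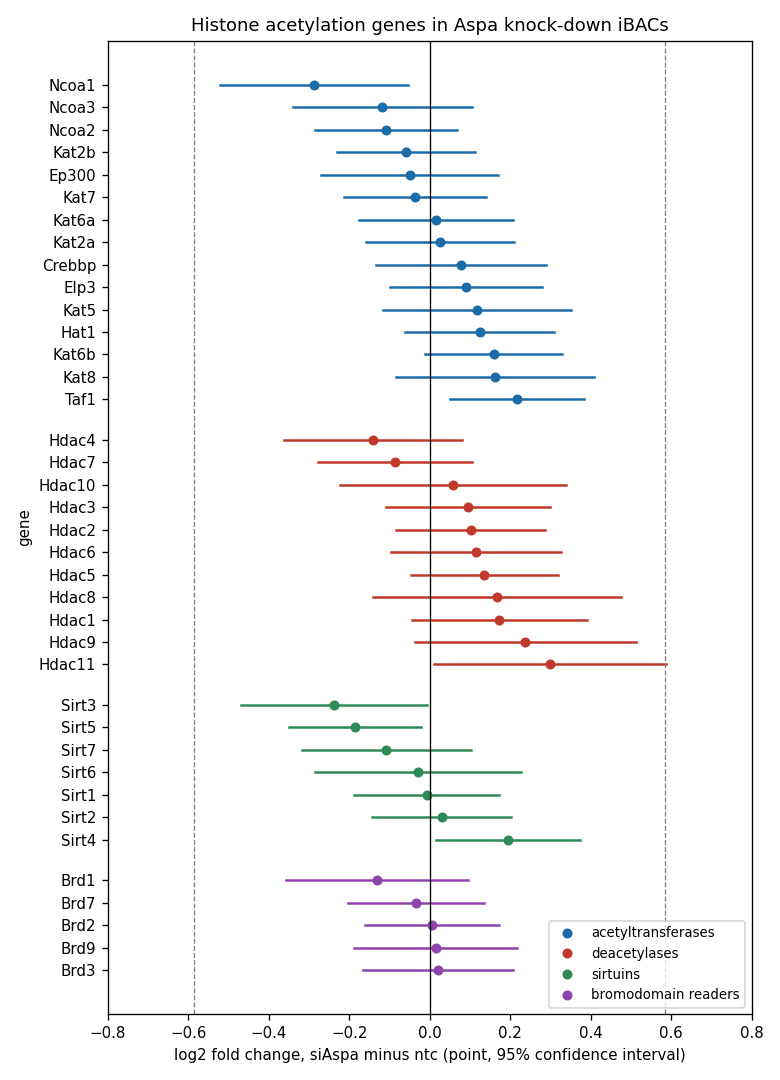
Log2 fold change (siAspa minus ntc, x axis) of the 38 genes (y axis), coloured by class. Points are limma estimates from 3 arrays per group, bars are 95% confidence intervals, and the dashed lines mark 1.5-fold in either direction. Of the 38 intervals, 37 lie between the dashed lines, and the interval of Hdac11 reaches 0.59.

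Among the acetyltransferases, 9 of 15 log2 fold changes were above 0 and 6 below, with a median of 0.03. Ncoa1 encodes SRC-1, a nuclear receptor coactivator that favours energy expenditure in brown fat of mice. It read 9.18, 9.02 and 9.29 in ntc and 8.89, 8.78 and 8.95 in siAspa. Every siAspa array thus lay below every ntc array, with a log2 fold change of -0.29 (SE 0.10, adjusted p of 0.325). The related coactivators Ncoa2 and Ncoa3 had log2 fold changes of -0.11 and -0.12. For Ncoa2 the groups also did not overlap, with 9.03, 8.93 and 9.06 in ntc and 8.88, 8.90 and 8.92 in siAspa. Taf1 is a scaffold subunit of the general transcription factor TFIID that itself carries bromodomains. It had the lowest unadjusted p among the probe sets used for the members, although the second probe set of Hdac11 had a lower one. The signals of Taf1 were 9.95, 9.92 and 9.93 in ntc and 10.11, 10.19 and 10.14 in siAspa. The siAspa arrays were all higher, and the log2 fold change was 0.22 (SE 0.07, adjusted p of 0.301).

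The acetyltransferases of the MYST family gave small values. Kat6b, a subunit of a complex that acetylates histone H3, read 8.54, 8.45 and 8.45 in ntc and 8.64, 8.61 and 8.67 in siAspa. The groups did not overlap, and the log2 fold change was 0.16 (SE 0.07, adjusted p of 0.465). Kat8, the main acetyltransferase for lysine 16 of histone H4, and Kat5, the catalytic subunit of the NuA4 complex, had log2 fold changes of 0.16 and 0.12 with overlapping groups. Kat6a and Kat7 were at 0.02 and -0.04. Hat1 acetylates newly made histone H4 before it is built into chromatin. It read 10.83, 10.82 and 10.72 in ntc and 10.86, 10.89 and 10.99 in siAspa, a log2 fold change of 0.12 with groups that did not overlap (SE 0.08, adjusted p of 0.609). A second, dimmer probe set of Hat1 had a log2 fold change of 0.21 (with an adjusted p of 0.402).

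The paralogs Ep300 and Crebbp encode p300 and CBP, which acetylate lysine 27 of histone H3 at enhancers. Their log2 fold changes were -0.05 (95% interval -0.27 to 0.17) and 0.08 (-0.13 to 0.29). Kat2a and Kat2b, the paralogous catalytic subunits of the SAGA and ATAC complexes that acetylate lysine 9 of histone H3, were at 0.03 (-0.16 to 0.21) and -0.06 (-0.23 to 0.11). For these 4 enzymes the arrays of both groups overlapped. Elp3, the catalytic subunit of Elongator, which modifies transfer RNA, was at 0.09.

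Among the zinc-dependent deacetylases, 9 of 11 log2 fold changes (81.8%) were above 0, as were 54.5% over all genes, with a median of 0.12. For 4 of 11 (36.4%) the siAspa arrays were all higher and for 0 all lower, against 12.6% and 9.99% of all genes. These counts include Hdac11, whose probe sets disagree, and with the mean of its probe sets 8 of 11 were above 0, 3 of 11 (27.3%) were all higher and the median was 0.10. Without replicate 3 of ntc the median was 0.05. Hdac1 and Hdac2 are the paralogous catalytic subunits of the Sin3, NuRD and CoREST complexes. Hdac1 read 11.73, 11.62 and 11.47 in ntc and 11.74, 11.84 and 11.77 in siAspa, a log2 fold change of 0.17 (SE 0.09, adjusted p of 0.539). The gap between the groups was small, since the highest ntc array lay just below the lowest siAspa array. Hdac2 was at 0.10 without overlap of the groups. Hdac3, the deacetylase of the NCoR complex, which activates thermogenic genes in brown fat of mice, was at 0.10, and Hdac8 at 0.17, both with overlapping groups.

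The class IIa deacetylases shuttle between nucleus and cytoplasm and act mainly by recruiting corepressors. Hdac5 read 9.09, 9.11 and 9.18 in ntc and 9.19, 9.33 and 9.27 in siAspa, a log2 fold change of 0.14 without overlap (SE 0.08, adjusted p of 0.568). Hdac9, a repressor of adipogenic differentiation in mice, read 4.94, 5.00 and 4.98 in ntc and 5.23, 5.41 and 4.99 in siAspa. A pair of siAspa arrays lay above ntc and the last was level with it, for a log2 fold change of 0.24 (SE 0.12, adjusted p of 0.497). Hdac9 was the only member whose mean signal was under the median of all probe sets. Hdac4 and Hdac7 were at -0.14 and -0.09. Hdac6, a cytoplasmic tubulin deacetylase, and Hdac10, a polyamine deacetylase, were at 0.12 and 0.06.

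Hdac11, the sole class IV enzyme, whose loss raises Ucp1 in mouse fat, read 6.35, 6.44 and 6.46 in ntc and 6.80, 6.88 and 6.46 in siAspa. Replicate 3 of siAspa was level with ntc, and the log2 fold change was 0.30 (SE 0.12, adjusted p of 0.413). The array annotation gave Hdac11 a second probe set, which pointed the other way. It read 6.06, 6.09 and 6.03 in ntc and 5.78, 5.79 and 5.68 in siAspa, a log2 fold change of -0.31 (SE 0.07, adjusted p of 0.179). With the mean of both probe sets the log2 fold change was -0.01. Which probe set measures the Hdac11 transcript could not be checked, so no direction can be given for Hdac11. Hat1 and Hdac11 were the 2 members with more than 1 such probe set.

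**Figure D2:**
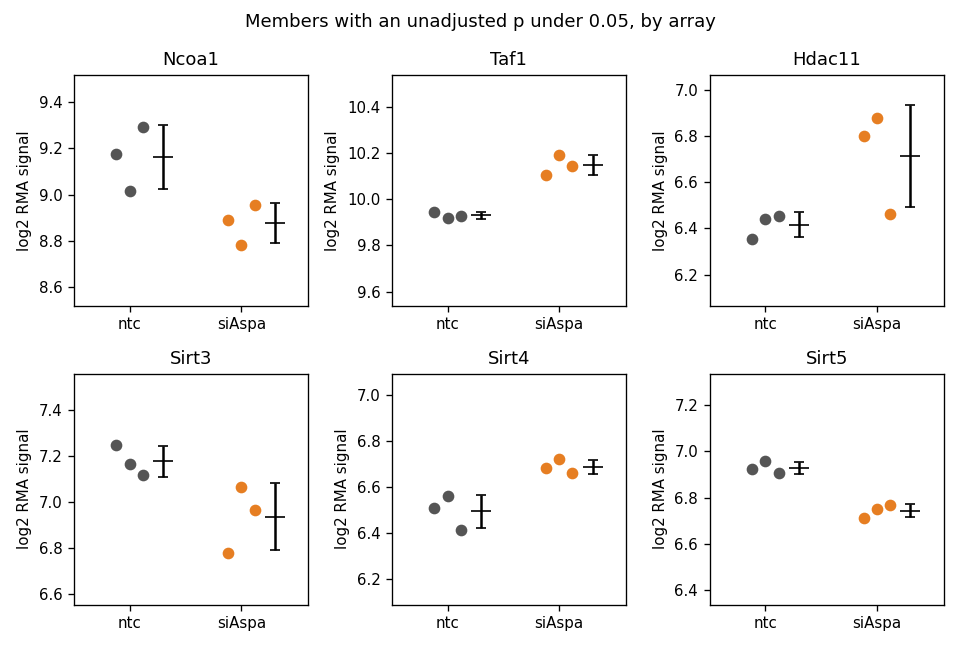
Log2 RMA signal (y axis) on each array of ntc and siAspa (x axis) for the 6 members with an unadjusted p under 0.05 from limma. Points are arrays, and the bar beside them is the mean with the standard deviation of 3 arrays. Each panel spans 1 log2 unit, the groups do not overlap in any of the 6, and replicate 3 of siAspa lies next to ntc for Hdac11.

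The sirtuins were the class with the largest share of low unadjusted p values, 3 of 7 genes, with 2 lower (28.6%, against 6.17% of all genes) and 1 of 7 higher (against 6.87%). The 3 sirtuins were the mitochondrial ones, Sirt3, Sirt4 and Sirt5. Sirt3, the main deacetylase of the mitochondrial matrix, read 7.25, 7.16 and 7.12 in ntc and 6.78, 7.07 and 6.96 in siAspa. All siAspa arrays were lower, with a log2 fold change of -0.24 (SE 0.10, adjusted p of 0.414). Sirt5 removes succinyl and malonyl groups from lysines and read 6.92, 6.96 and 6.91 in ntc and 6.71, 6.75 and 6.77 in siAspa. Its siAspa arrays were also all lower and the spread in both groups was narrow, with a log2 fold change of -0.19 (SE 0.07, adjusted p of 0.371). Sirt4, which restrains glutamine and fatty acid use in mitochondria, went the other way, with 6.51, 6.56 and 6.42 in ntc and 6.68, 6.72 and 6.66 in siAspa. Its siAspa arrays were all higher, and the log2 fold change was 0.19 (SE 0.08, adjusted p of 0.393). The mitochondrial sirtuins therefore shared no direction.

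The remaining sirtuins act in the nucleus or the cytoplasm, and their groups overlapped. Sirt1, a nuclear deacetylase of histones and of PGC-1alpha, had a log2 fold change of -0.01 (95% interval -0.19 to 0.17). Sirt2, mainly cytoplasmic, was at 0.03 (-0.14 to 0.20). Sirt6, a chromatin enzyme that acts on lysine 9 of histone H3, was at -0.03 (-0.29 to 0.23). Sirt7, a nucleolar enzyme, read 7.52, 7.52 and 7.39 in ntc and 7.32, 7.29 and 7.49 in siAspa, a log2 fold change of -0.11 (SE 0.09, adjusted p of 0.715). The median of the 7 sirtuins was -0.03.

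The promoter windows of the 3 mitochondrial sirtuins are shown as the genomic context of the class with the largest share of unadjusted p values under 0.05. Each runs from 250 bases before to 50 bases after a transcription start of RefSeq (GRCm38.p6), 5′ to 3′ on the strand of the gene. They lie at chr7:140882260-140882559 (minus strand), chr5:115484248-115484547 (minus strand) and chr13:43365285-43365584 (plus strand). The annotated span of Sirt4 reaches chr5:115490264, and that of Sirt5 begins at chr13:43365389. The starts used for Sirt4 and Sirt5 thus lie inside these spans, and other starts further upstream are not shown. Capitals mark AAGGTCA or its reverse complement, the motif that estrogen-related receptors, partners of PGC-1alpha, can bind.
Sirt3: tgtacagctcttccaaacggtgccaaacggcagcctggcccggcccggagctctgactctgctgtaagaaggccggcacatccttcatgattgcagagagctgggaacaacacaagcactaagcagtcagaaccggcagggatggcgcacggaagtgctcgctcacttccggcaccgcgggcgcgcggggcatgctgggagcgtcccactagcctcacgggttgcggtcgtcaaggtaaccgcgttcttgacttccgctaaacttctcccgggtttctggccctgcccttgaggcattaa
Sirt4: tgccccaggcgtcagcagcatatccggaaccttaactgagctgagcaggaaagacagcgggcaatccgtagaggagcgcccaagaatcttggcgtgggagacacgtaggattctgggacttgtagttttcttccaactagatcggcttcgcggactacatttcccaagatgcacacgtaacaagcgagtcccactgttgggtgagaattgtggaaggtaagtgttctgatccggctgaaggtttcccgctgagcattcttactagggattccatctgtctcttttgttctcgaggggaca
Sirt5: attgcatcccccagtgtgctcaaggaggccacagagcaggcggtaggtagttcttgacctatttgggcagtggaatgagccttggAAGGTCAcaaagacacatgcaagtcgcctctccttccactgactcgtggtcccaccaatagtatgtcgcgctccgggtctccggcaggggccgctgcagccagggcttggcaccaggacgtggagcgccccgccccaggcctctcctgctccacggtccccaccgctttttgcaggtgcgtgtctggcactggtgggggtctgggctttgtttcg
These windows held 23, 15 and 15 CpG dinucleotides. The median was 7 over all 32851 windows of the table and 21.5 over the 44 windows of members. A single match was found, in Sirt5, starting 165 bases before the transcription start used here. For Sirt3 a second start is listed, whose window is not shown and held no match. Among the promoter windows of members, 44 windows of 31 genes, 2 (4.55%) held the motif, in Sirt5 and Kat7, compared with 4.72% of all windows. A match describes the letters only.

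The bromodomain readers showed the least movement. Brd2 and Brd3 belong to the BET family, which binds acetylated histones and recruits the elongation machinery. Brd2 had a log2 fold change of 0.01 (95% interval -0.16 to 0.17), and Brd3 read 8.49, 8.35 and 8.49 in ntc and 8.42, 8.49 and 8.50 in siAspa, a log2 fold change of 0.02 (SE 0.08, adjusted p of 0.953). Brd7 and Brd9 are subunits of SWI/SNF chromatin remodelling complexes. Brd7 read 9.70, 9.70 and 9.61 in ntc and 9.63, 9.64 and 9.64 in siAspa, a log2 fold change of -0.03 (SE 0.07, adjusted p of 0.905). Brd9 read 8.83, 8.78 and 8.62 in ntc and 8.72, 8.74 and 8.82 in siAspa, a log2 fold change of 0.01 (SE 0.09, adjusted p of 0.971). Brd1, a scaffold of the Kat7 complex, read 8.93, 8.74 and 8.77 in ntc and 8.56, 8.77 and 8.73 in siAspa, a log2 fold change of -0.13 (SE 0.10, adjusted p of 0.668). The groups overlapped for all 5 readers, and the median was 0.01.

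Related members were set against each other on the same array, because a shift in their ratio does not depend on a constant scaling of the array. Of 19 pairs, 8 had log2 fold changes of opposite sign. In 7 pairs the ratio on the siAspa arrays did not overlap with that on the ntc arrays (exact permutation test, two-sided, p = 0.1, the smallest this test allows with 3 against 3 arrays, and 0.271 after Benjamini-Hochberg adjustment over the pairs). No such share was computed for other gene pairs, so the 7 are given as a description. Hdac4 differed from Hdac5 by -0.28 in log2 fold change and Hdac7 from Hdac9 by -0.32. Hdac5 differed from Hdac7 by 0.22, so that Hdac5 and Hdac9 lay on one side of these class IIa pairs and Hdac4 and Hdac7 on the other, although the ratio of Hdac4 to Hdac9 overlapped between the groups. These pairs share genes and so are not separate observations, and the signal of Hdac9 was under the median of all probe sets. Sirt2 differed from Sirt3 by 0.27. Ncoa1 differed from Ncoa2 by -0.18, Kat6a from Kat6b by -0.14 and Ep300 from Crebbp by -0.13. An unequal change of a pair does not say which of its genes changed.

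**Figure D3:**
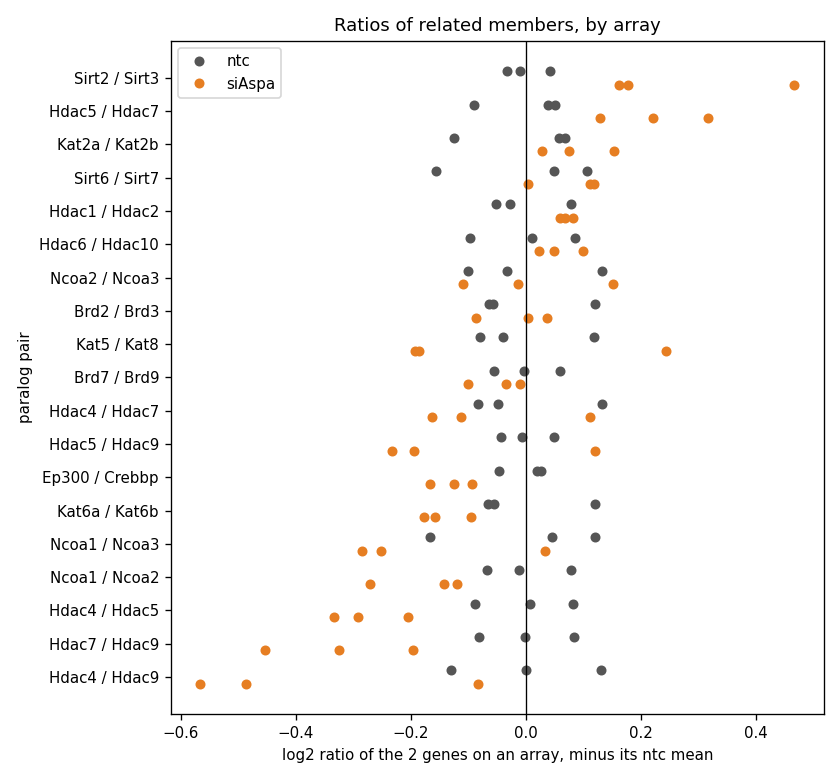
Log2 ratio of the genes of each of 19 paralog pairs (y axis) on each array, relative to the mean ratio of the 3 ntc arrays (x axis, log2 units). Points are arrays of ntc and siAspa. The groups are separate in 7 pairs, among them Hdac4 and Hdac5 (a difference of -0.28) and Sirt2 and Sirt3 (0.27).

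The complexes that carry these enzymes gave a similar picture. Of 45 measured partner subunits of acetyltransferase complexes, 0 passed the test, and an unadjusted p under 0.05 was found for 0 lower and 3 higher genes (6.67%, against 6.87% of all genes). The lowest p belonged to Ing5, a reader subunit of the Kat6 and Kat7 complexes, with a log2 fold change of 0.28 (an adjusted p of 0.245), and Epc2, a NuA4 subunit, with 0.22 (adjusted p of 0.322). The other was Tada3, an adaptor of SAGA and ATAC, with 0.21. Of 30 measured partners of deacetylase complexes, 0 passed, and Ing1, a Sin3 subunit, was the only gene with an unadjusted p under 0.05 (3.33% higher), with a log2 fold change of 0.25 (an adjusted p of 0.269). The medians of these lists were 0.01 and 0.05. Of 24 other readers of acetylated lysine, 0 passed, with 3 lower and 3 higher genes below an unadjusted p of 0.05 (12.5% each, against 6.17% and 6.87% of all genes). Cecr2, a bromodomain protein of ISWI remodelling complexes, had a log2 fold change of -0.71 (95% interval -1.03 to -0.39, adjusted p of 0.119), the widest departure from 0 of any member or partner. It read 6.65, 6.61 and 6.81 in ntc and 5.90, 6.26 and 5.79 in siAspa. The medians of the siAspa arrays over all probe sets were 5.85, 5.83 and 5.78, and RMA values have no detection call. Yeats2, a YEATS domain subunit of the ATAC complex, was at 0.26 (adjusted p of 0.270). The remaining 4 were the SWI/SNF ATPase Smarca2 at -0.27 and the bromodomain proteins Atad2b at -0.25, Atad2 at 0.20 and Brwd1 at 0.19.

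Sirtuins consume NAD, and genes that salvage or use NAD were mostly below 0. Of 11 measured, 9 were negative and 18.2% were above 0, compared with 54.5% of all genes. The median log2 fold change was -0.08, beside 0.02 over all genes. Of the list, 0 passed, and 3 lower genes had an unadjusted p under 0.05 (27.3% against 6.17% of all genes). Nmnat1, the nuclear enzyme that makes NAD from nicotinamide mononucleotide, read 8.44, 8.29 and 8.36 in ntc and 7.93, 7.88 and 8.08 in siAspa. Every siAspa array was lower, with a log2 fold change of -0.40 (95% interval -0.61 to -0.19, adjusted p of 0.150). Nampt, the rate-limiting enzyme of NAD salvage, read 11.94, 11.88 and 11.82 in ntc and 11.55, 11.53 and 11.67 in siAspa. Its groups did not overlap either, and the log2 fold change was -0.30 (95% interval -0.49 to -0.11, adjusted p of 0.218). Nmnat3, a mitochondrial relative of Nmnat1, was at -0.26 (-0.49 to -0.03).

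**Figure D4:**
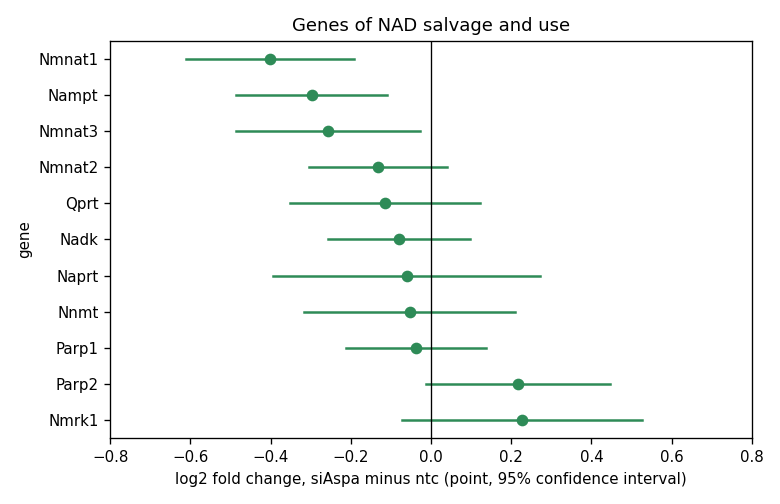
Log2 fold change (siAspa minus ntc, x axis) of 11 genes of NAD salvage and use (y axis). Points are limma estimates from 3 arrays per group and bars are 95% confidence intervals. The intervals of Nmnat1, Nampt and Nmnat3 lie below 0, and no gene passed after adjustment over all probe sets.

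Markers of brown and general adipocytes differed between the groups more than the members did, with median log2 fold changes of -0.92 and -0.27. Of 8 brown adipocyte markers, 7 (87.5%) had lower signals with an unadjusted p under 0.05. For this and the marker counts below, 6.17% of all genes were lower and 6.87% higher at that level. The summed signal of the 8 brown adipocyte markers was 13.18 to 13.47 in ntc and 11.98 to 12.43 in siAspa on the log2 scale. Ucp1, which uncouples respiration, and Otop1 passed after adjustment at -1.72 and -1.11 on the log2 scale, both with an adjusted p of 0.034. Of 8 general adipocyte markers, 5 (62.5%) were lower at the unadjusted level, with sums of 14.84 to 14.85 and 14.52 to 14.71. The sum of 7 markers of dividing cells was 13.71 to 13.74 in ntc and 13.78 to 13.83 in siAspa. Of these 7 genes, 6 had log2 fold changes above 0, the largest being 0.16. For 5 of 7 (71.4%, against 12.6% of all genes) the siAspa arrays were all higher, and for 1, Rrm2, all lower. By the unadjusted p, Rrm2 was the 1 lower gene and 0 were higher. The sum of 7 preadipocyte and fibroblast markers was 14.04 to 14.09 in ntc and 14.09 to 14.15 in siAspa, with 1 lower and 1 higher. Of 6 macrophage, 3 endothelial and 5 skeletal muscle markers, 0 were lower, and 1, 1 and 0 were higher. Sums ran from 8.28 to 8.49 and from 8.57 to 8.66 for macrophages, from 7.19 to 7.25 and from 7.25 to 7.56 for endothelium and from 8.38 to 8.66 and from 8.39 to 8.64 for muscle, in ntc and siAspa. The part of these differences in the values of the members was not tested. In whole cultures, fewer cells of a type and less RNA per cell cannot be told apart.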

How the data were processed

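Total RNA of the 6 cultures was hybridized to Affymetrix Mouse Gene 2.0 ST arrays. Deposited were log2 values, which the authors computed by RMA (CarmaWeb) with background correction, quantile normalization and probe set summary. RMA makes the distributions of the arrays equal, so that a change shared by most genes is not visible. The sources used here name neither a software version nor the probe set definition. Of 41345 probe sets, 23521 were annotated with a single gene. Symbols were updated through gene identifiers (RefSeq, GRCm38.p6).

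siAspa and ntc were compared with limma 3.58.1 in R 4.3.3 (lmFit and eBayes, no block) on all 41345 rows, with Benjamini-Hochberg adjustment over all rows and a threshold of 0.05, after the moderated test of the paper's methods. The fit was also run on simulated data with known changes. Those values were drawn independently, so the simulation cannot show how the intervals behave where variation is shared within a passage or an array. Background shares are over the 22180 genes. The replicates are passages, so p-values reflect only the spread among them, and precision is limited by the number of arrays. RMA values have no detection call. Members and lists were chosen with earlier results of these data known. Every member is named, with values by array for the 4 lowest unadjusted p values of each class (Ncoa2 was added after its values were seen). From each partner list, up to 2 genes with the lowest unadjusted p under 0.05 are given with adjusted p; other such genes were named after their values were seen. Of the partner and NAD list genes, 15 had no probe set annotated with that gene alone and are not analysed here. Alternatives were a replicate block, another variance prior, 2 further normalizations, 2 row filters, array weights, the mean over probe sets of a gene and leaving out each array.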

Additional observations from a re-analysis of the deposited data

How the results depend on the processing

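No member passed an adjusted p under 0.05 under any of the 8 alternatives or without any 1 array, and the lowest adjusted p of the 16 members given with standard errors was 0.123. Over all probe sets, 30 were lower and 48 higher. These counts became 236 and 152 with a robust variance prior fitted along the signal, 394 and 253 among rows above the median signal, 329 and 251 among rows with 1 gene, 0 and 0 with the replicate block, and 0 to 1 in either direction without 1 array. The paper reports more lowered than raised genes after its moderated test. In the main fit used here the order was the reverse. With the other variance prior and with the row filters, more probe sets were lower than higher. The methods of the paper name neither a variance prior nor a row filter, so the source of the difference could not be traced. The 3 lower and 3 higher members at an unadjusted p under 0.05 (alternatives for these counts were chosen after seeing the data) became 1 and 1 with the replicate block, 5 higher with the other variance prior, and 0 to 1 lower and 0 to 3 higher without 1 array. Each of the 6 arrays, left out alone, lowered the count of lower members by over 1.5 times, and each but replicate 2 of ntc and replicate 3 of siAspa did so for the higher members. The shares over all genes under these alternatives were not computed. Whether these changes in count are particular to the members was therefore not tested. The replicate numbers did not pair the arrays, since deviations of arrays with the same number correlated at 0.00, 0.02 and 0.00.

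Brd9 was at -0.0163 with array weights, and Hdac11 at -0.00526 with the mean of its probe sets, each with the sign reversed. Without 1 array, the log2 fold change ran from -0.0259 to 0.0460 for Brd3 and from -0.0462 to 0.0569 for Brd9. The class medians ran from 0.0082 to 0.0555 for acetyltransferases, 0.0514 to 0.141 for deacetylases, -0.113 to -0.0185 for sirtuins and -0.0462 to 0.0046 for bromodomain readers. Under the alternatives that keep all arrays, 125 other values of single members kept their direction and their side of the threshold.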
